A study of Homo sapiens with 6 samples.

Results

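The 43 genes described here encode lysosomal proteins, components of autophagy and the transcription factors known to control both. They were listed by symbol, with no measured value in the rule, and matched to 43 of the 58302 Ensembl genes in the RNA-seq data of Smyca knockdown. Smyca is a lncRNA, annotated as MIR23AHG, that the study examined in breast cancer cells. Cells labelled MDA-MB231, an established line derived from a triple-negative breast carcinoma, expressed control shRNA in 3 libraries and Smyca shRNA #1 in 3 libraries. Both groups thus carried an shRNA and differed in its target, and the knockdown rests on 1 shRNA. The study describes the libraries as biological repeats, and RNA from whole cultures was sequenced, so fewer cells of a type and less RNA per cell cannot be told apart.

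Lysosomes are acidic organelles in which proteases, glycosidases and lipases break down material delivered by endocytosis or by autophagy. A proton pump, the V-ATPase, acidifies them. In autophagy, a membrane grows around cargo, ATG8 proteins such as LC3 are joined to its lipids, receptor proteins tie cargo to ATG8, and the closed vesicle fuses with a lysosome. TFEB, TFE3 and MITF are related transcription factors that are held in the cytoplasm while mTORC1 is active on the lysosomal surface, and that in the nucleus bind an E-box variant, the CLEAR element, in the promoters of many lysosomal and autophagy genes.

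The CLEAR element is shown first because it is the sequence by which these genes are known to be grouped. RefSeq promoter windows of 300 bases (GRCh38.p14) were found for 34 of the 43 genes, and the first listed for each gene was searched for the E-box CACGTG, the 8-base CLEAR core TCACGTGA and the 10-base CLEAR palindrome GTCACGTGAC, each of which contains the one before and reads the same on both strands. The E-box was present for 7 of the 34 genes (20.6%, against 7.43% of the 27305 genes with a window). Of these 7, 5 held the CLEAR core (14.7%, against 1.04%) and 1, that of MCOLN1, held the palindrome (2.94%, against 0.381%). All 34 were expressed. Among the 10964 genes with a window that were tested for expression, 1.89% held the core and 8.16% an E-box without it, against 14.7% and 5.88% of the 34. The 5 windows with a CLEAR core are printed 5′ to 3′ on the strand of the gene, from 200 bases before the RefSeq start to 25 bases after it, with E-boxes in capitals and the capitals extended over a CLEAR core or palindrome where they match.
ATG3: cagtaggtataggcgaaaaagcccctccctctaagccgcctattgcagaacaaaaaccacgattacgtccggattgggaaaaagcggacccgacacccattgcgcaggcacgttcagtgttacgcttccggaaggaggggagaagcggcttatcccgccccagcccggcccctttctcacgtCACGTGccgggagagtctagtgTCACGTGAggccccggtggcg
LAMP1: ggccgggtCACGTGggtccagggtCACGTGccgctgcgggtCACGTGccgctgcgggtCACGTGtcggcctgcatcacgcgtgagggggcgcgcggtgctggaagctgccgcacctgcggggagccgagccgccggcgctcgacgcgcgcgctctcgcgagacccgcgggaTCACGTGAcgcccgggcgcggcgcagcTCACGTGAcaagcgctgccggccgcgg
ATP6V0D1: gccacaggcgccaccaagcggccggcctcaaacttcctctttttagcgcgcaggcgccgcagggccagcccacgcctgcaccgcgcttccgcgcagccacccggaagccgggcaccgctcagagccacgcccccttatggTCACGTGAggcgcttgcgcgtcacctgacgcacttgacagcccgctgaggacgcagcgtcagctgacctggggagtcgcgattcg
MCOLN1: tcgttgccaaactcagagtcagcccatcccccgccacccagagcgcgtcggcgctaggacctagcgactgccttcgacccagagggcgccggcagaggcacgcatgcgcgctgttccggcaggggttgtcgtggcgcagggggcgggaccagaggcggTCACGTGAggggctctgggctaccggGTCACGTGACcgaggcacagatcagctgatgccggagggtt
CTSA: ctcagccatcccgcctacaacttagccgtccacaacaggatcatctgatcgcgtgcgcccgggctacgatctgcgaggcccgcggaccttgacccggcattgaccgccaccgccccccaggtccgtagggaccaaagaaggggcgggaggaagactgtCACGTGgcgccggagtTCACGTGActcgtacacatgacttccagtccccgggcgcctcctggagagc
They lie at chr3:112561938-112562162 (minus strand, ATG3), chr13:113297039-113297263 (plus strand, LAMP1), chr16:67481133-67481357 (minus strand, ATP6V0D1), chr19:7522424-7522648 (plus strand, MCOLN1) and chr20:45891135-45891359 (plus strand, CTSA). GENCODE's longest span of CTSA begins upstream of the window shown. The stretch of LAMP1, which encodes an abundant lysosomal membrane glycoprotein, held 6 E-boxes, of which 2 were CLEAR cores, and those of ATG3 and CTSA held 2 E-boxes with 1 core each. CTSD and NEU1 carried an E-box with 1 of the 2 flanking bases of the core. The windows of TFEB, TFE3, MITF and of every autophagy member with an entry other than ATG3 held no E-box, which says only that these letters are absent from these 300 bases.

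Total counts lay between 14999307 and 16501085 per library, and all 43 genes passed the filter on low counts together with 15075 genes in all. Smyca had 25, 19.5 and 22 normalized CPM (counts relative to the TMM-scaled library size, on the CPM scale) in control repeats 1 to 3 and 10.5, 6.97 and 5.61 in the knockdown, with no overlap (log2 fold change -1.53, SE 0.26, adjusted p = 0.111 with edgeR's quasi-likelihood test). The study called a gene a DEG where control over knockdown was 1.5 or more, or 0.66 or less, with an adjusted p under 0.05. By these criteria and edgeR's test, 4 of the 15075 genes were called (0.0265%), namely DUSP1, ZFP36, JUN and B4GALNT4, each lower in the knockdown. With its own test, DESeq, the study reported far more DEGs. DESeq2's Wald test called 850 of 15069 genes here (5.64%), so the number depended on the test. Of 12 markers of MDA-MB-231, 9 had at least 100 counts in every library, while SPARC had 0 to 11, and the list summed to 16242 to 19845 counts in control and 14113 to 15703 in knockdown libraries. Of the 11 tested, 6 were lower in the knockdown at an unadjusted p under 0.05 (edgeR) and the median log2 fold change was -0.65. KRT19 (13270 to 31716 counts), ERBB3 (1448 to 1998), VIL1 (3443 to 7901), HNF4A (1021 to 3064) and TFF3 (594 to 2650), markers of luminal or intestinal epithelium, were also high. ESR1 had 0 to 3 and PGR 0, and of 8 luminal markers 2 had at least 100 counts in every library. VIL1 was higher in the knockdown without overlap (log2 fold change 0.62, SE 0.19, adjusted p = 0.155, edgeR). LGALS4, with few counts, was lower without overlap (log2 fold change -1.14, SE 0.42, adjusted p = 0.200, edgeR). Of 8 intestinal markers, 3 had at least 100 counts in every library and CDX2 had 95 to 168. CDX1 had 0, GPA33 1 to 6, LGALS4 5 to 21 and CDH17 11 to 67. The sum of the 8 ran from 6082 to 10691 in control and 10101 to 12990 in knockdown libraries. The part of these markers in the values below was not tested. This mixture goes against the labelled line in part, and the cells are named by their label. Leukocyte markers, of interest because macrophages are rich in lysosomal transcripts, summed to 22 to 30 counts in control and 12 to 21 in knockdown libraries over 8 genes, with PTPRC at 0 throughout.

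A pair of libraries needs to be kept in mind. In control repeat 3, a score over 15 hypoxia-inducible genes (the median deviation in log2 normalized CPM) was -0.45, against 1.53 and 0.91 in control repeats 1 and 2 and -0.89 to -0.51 in the knockdown. All 15 of these genes had negative log2 fold changes and 12 passed an unadjusted p under 0.05. The corresponding score over 15 immediate-early genes was 0.46 to 1.22 in the control and -1.08 to -0.66 in the knockdown, and all 15 passed it. The part of either list in the values below was not tested. In control repeat 2, only 1.5% of genes had an FPKM that followed from the count in the same file within 1%, whereas every gene did so in the other libraries. Values without control repeat 3 and with the reads behind that FPKM column are therefore given where they matter.

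None of the 43 genes was a DEG with edgeR. At an unadjusted p under 0.05 in edgeR's quasi-likelihood test, 5 were lower in the knockdown (11.6%, against 10.4% of all genes tested) and 4 were higher (9.3%, against 8.74%). With all 6 libraries, these shares were near the background. Without control repeat 3, 11 were lower (25.6%, against 15.7%) and 9 higher (20.9%, against 13.9%), and without knockdown repeat 2, 1 was lower (2.33%, against 6.02%) and 0 higher (against 4.75%). With all libraries, the lower genes were CTSB, CTSS, OPTN, MAP1LC3B and WIPI1, and the higher ones LAMP1, CTSZ, LIPA and ATP6V0D1. By the ratio alone, 6 genes were lower (14%, against 15.6% of all genes) and 1, MITF, was higher (2.33%, against 5.54%). The 3 knockdown libraries all lay below the 3 control libraries for 5 genes (11.6%, against 12.4%) and above them for 4 (9.3%, against 12.5%). The median log2 fold change was -0.03 for the 43 genes and -0.04 for all genes tested, 25 genes had a negative and 18 a positive value, and for 23 it lay within 0.25 of 0. The smallest adjusted p was 0.130, for WIPI1, and the median SE over the members was 0.18 on the log2 scale.

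**Figure D1:**
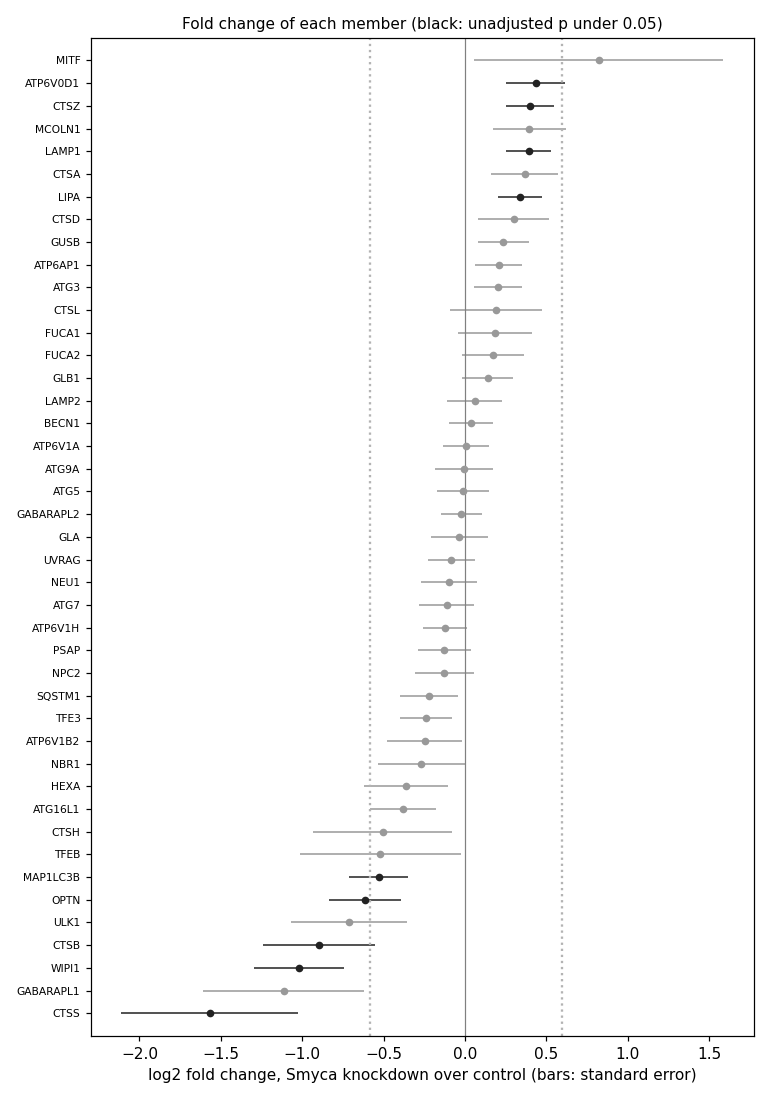
Log2 fold change of each of the 43 genes in the Smyca knockdown over control (x axis, from edgeR), sorted, with bars for the standard error and dotted lines at the bounds of the ratio. The 9 black points had an unadjusted p under 0.05, and the values run from -1.57 for CTSS to 0.82 for MITF.

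Calls among the members depended on the fit. With DESeq2's Wald test, 1 member was a DEG, WIPI1 (log2 fold change -1.01, adjusted p = 0.0194), beside 5.64% of 15069 genes. Without control repeat 3, the members called were CTSA, WIPI1, OPTN and ATP6V0D1, beside 10.5% of 15449 genes, a share close to the members' 4 of 43. Without a filter on low counts, WIPI1, GABARAPL1 and CTSB were called, beside 3.01% of 30409 genes. WIPI1 was the gene found in each of these 3 settings.

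The genes spanned a wide range of levels. Control means are given on the RPKM scale (the normalized CPM divided by gene length in kilobases). They ran from 313 ± 41.1 (SD, 3 libraries, as for each mean below) for PSAP, the precursor of the saposin activators, down to 0.835 ± 0.835 for MITF. The lengths are those implied by the deposited FPKM. For some genes they fell far short of the annotated exonic bases (997 against 10530 for CTSB and 915 against 19384 for CTSZ, but 2047 against 2043 for FUCA1). The order of different genes thus depends on these lengths. Above 100 RPKM lay 7 genes, in the order PSAP, CTSB, CTSZ, SQSTM1, ATP6V0D1, LAMP1 and GABARAPL2, and 7 lay under 10 RPKM, in the order CTSH, TFEB, CTSL, HEXA, FUCA1, CTSS and MITF. Of the 42 neighbouring pairs in the full order, 6 were further apart than the larger SD of the pair. Those were the steps below CTSZ, LAMP1, ATG7, MCOLN1, ATG5 and FUCA1, so most neighbours did not differ beyond their spread.

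**Figure D2:**
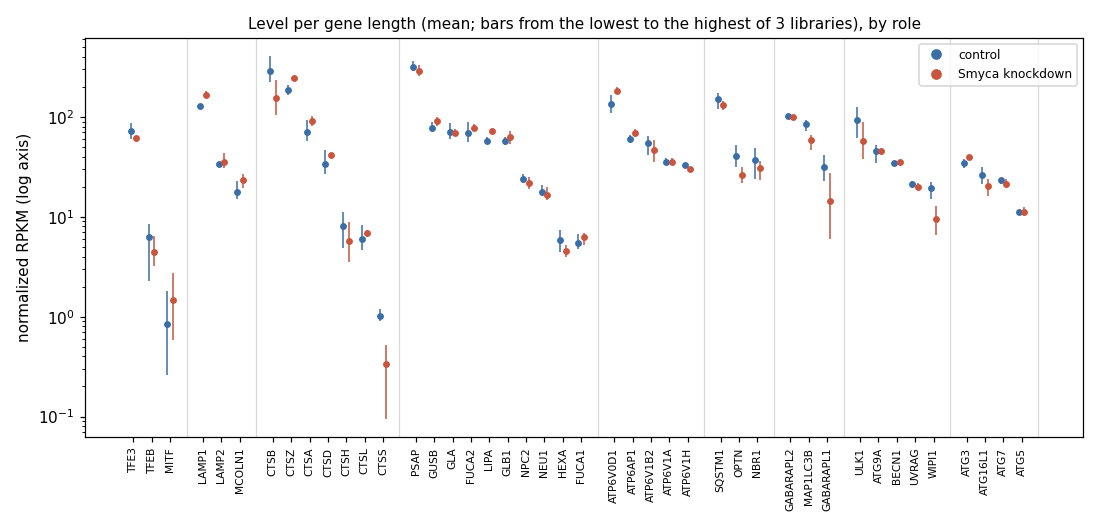
Normalized RPKM (y axis, log scale) of the 43 genes, grouped by role and ordered by control level within each role. Points are means and bars run from the lowest to the highest of 3 libraries, blue for control and red for Smyca knockdown, and PSAP and CTSB stand highest and MITF and CTSS lowest in the control.

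Among the transcription factors, TFE3 carried most of the RNA. On the RPKM scale its control level was 72.6 ± 12.9, against 6.32 ± 3.5 for TFEB and 0.835 ± 0.835 for MITF. TFEB had 10.9, 11.1 and 3.01 normalized CPM in control repeats 1 to 3 and 8.57, 4.24 and 4.62 in the knockdown. Control repeat 3 was the lowest of the 6 libraries and the groups overlapped, with a log2 fold change of -0.52 (SE 0.50, adjusted p = 0.590, edgeR). It was -0.91 without control repeat 3 and 0.09 with the FPKM-derived reads of control repeat 2, so even its sign rested on single libraries. TFE3 had 154, 128 and 108 normalized CPM in the control and 107, 110.2 and 113 in the knockdown (log2 fold change -0.24, SE 0.16, adjusted p = 0.447, edgeR). MITF had only 12, 7 and 46 counts in the control and 15, 29 and 68 in the knockdown, which overlapped. Its log2 fold change of 0.82 (SE 0.77) was 2.04 without control repeat 3 and 0.10 with the FPKM-derived reads. In control repeat 3, TFEB was at its lowest and MITF at its highest among the controls.

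Of the 3 membrane proteins, LAMP1 separated the groups. Its normalized CPM were 337, 380.0 and 350.3 in the control and 442, 503 and 456 in the knockdown. Each knockdown library exceeded each control library, and the log2 fold change was 0.39 (SE 0.14, adjusted p = 0.182, edgeR), or 1.31-fold. This value held between 0.32 and 0.45 over all alternatives. LAMP2, its structural relative that also serves as receptor in chaperone-mediated autophagy, had 70.9 to 79.8 normalized CPM in the control and 69.8 to 98.1 in the knockdown, a log2 fold change of 0.06 (SE 0.17). MCOLN1, the cation channel that releases lysosomal calcium, had 15, 15.4 and 23 normalized CPM in the control and 19.4, 26.6 and 24.2 in the knockdown. Control repeat 3 reached into the knockdown range, and the log2 fold change of 0.39 (SE 0.22, adjusted p = 0.372, edgeR) became 0.63 without it and 0.11 with the FPKM-derived reads.

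The 7 cathepsins, lysosomal proteases, did not move together. CTSB, a cysteine protease, had the highest mean RPKM of the cathepsins in the control, where it differed from CTSZ by less than its SD. It had 407, 229 and 224 normalized CPM in the control and 123, 105 and 235 in the knockdown. Knockdown repeat 3 lay within the control range while the other knockdown libraries lay below it, and the log2 fold change was -0.90 (SE 0.35, adjusted p = 0.211, edgeR). It moved to -0.56 without control repeat 1, the highest library, and to -1.32 without knockdown repeat 3. CTSS, a cathepsin known from antigen-presenting cells, was near the detection limit with 20, 26 and 19 counts in the control and 11, 2 and 8 in the knockdown. The groups did not overlap and the log2 fold change was -1.57 (SE 0.54, adjusted p = 0.180, edgeR). CTSH, an aminopeptidase, had 4.55 to 10.4 normalized CPM in the control and 3.3 to 8.38 in the knockdown. Its log2 fold change of -0.51 (SE 0.42) ran from -0.98 to -0.21 when single libraries were left out and was -0.10 with the FPKM-derived reads of control repeat 2.

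CTSZ, a carboxypeptidase, went the other way. It had 152, 170.0 and 192 normalized CPM in the control and 211, 229 and 236 in the knockdown, without overlap. The log2 fold change was 0.40 (SE 0.15, adjusted p = 0.198, edgeR), or 1.32-fold. NELFCD on the opposite strand shares 31.7% of the exonic bases of CTSZ, and without a stated strand setting of the counting their reads cannot be told apart. CTSA, a carboxypeptidase that protects NEU1 and GLB1, had 67.4, 62.9 and 102 normalized CPM in the control and 88.1, 112 and 99.4 in the knockdown. The groups overlapped only through control repeat 3, and the log2 fold change of 0.37 (SE 0.21, adjusted p = 0.367, edgeR) was 0.62 without it (adjusted p = 0.0428) and 0.10 with the FPKM-derived reads. CTSD, the main aspartic protease, had 38.8, 36.7 and 63.3 in the control and 54.1, 58.2 and 58.6 in the knockdown on the same scale, with a log2 fold change of 0.30 (SE 0.22). This was 0.60 without control repeat 3 (adjusted p = 0.0341, edgeR), short of the bound of the ratio, and 0.06 with the FPKM-derived reads. Control repeat 3 was the highest of the 6 libraries for CTSD, and 27.3% of its exonic bases belong to 2 other genes on its own strand, which had 14 and 57 counts over the 6 libraries. CTSL had 5.8 to 10.3 normalized CPM in the control and 7.68 to 9.18 in the knockdown. Its log2 fold change of 0.19 (SE 0.28) was 0.50 without control repeat 3 and -0.12 with the FPKM-derived reads.

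Within the summed RPKM of the 7 cathepsins, CTSB made up 60.3%, 44.5% and 38.3% in the control and 25.1%, 20.5% and 36.9% in the knockdown. CTSZ made up 24.5%, 35.9% and 35.7% in the control and 47.1%, 49% and 40.4% in the knockdown. With the lengths used, CTSZ was thus the larger share in each knockdown library and CTSB in each control library. The sum itself overlapped between groups (517 to 678 RPKM in control and 489 to 639 in knockdown libraries).

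Of the 10 glycosidases, lipase and lipid or activator proteins, 5 had positive and 5 negative log2 fold changes, between -0.36 and 0.34. LIPA, the acid lipase that hydrolyses cholesteryl esters, separated the groups. Its normalized CPM were 77.8, 90.7 and 78.1 in the control and 98.9, 108 and 105 in the knockdown, a log2 fold change of 0.34 (SE 0.14, adjusted p = 0.228, edgeR), or 1.27-fold. It lay between 0.27 and 0.42 over all alternatives. NPC2, which hands cholesterol to NPC1 after LIPA, had 18.5 to 22.8 normalized CPM in the control and 16.2 to 21.1 in the knockdown (log2 fold change -0.13, SE 0.18). PSAP had 434 to 546 in the control and 388 to 498 in the knockdown (log2 fold change -0.13, SE 0.16).

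The glycosidases overlapped between groups in each case. GUSB, the beta-glucuronidase often used as a reference gene, had 81.5 to 103 normalized CPM in the control and 93 to 115 in the knockdown (log2 fold change 0.24, SE 0.16). GLB1, the beta-galactosidase behind the senescence stain, had 45 to 53.4 in the control and 46.3 to 61.3 in the knockdown (log2 fold change 0.14, SE 0.16). The fucosidases FUCA1 and FUCA2 had log2 fold changes of 0.19 (SE 0.23) and 0.17 (SE 0.19). GLA, the enzyme lost in Fabry disease, was at -0.03 (SE 0.17), NEU1, a sialidase, at -0.10 (SE 0.17), and HEXA, the hexosaminidase alpha subunit, at -0.36 (SE 0.26), which was -0.17 without control repeat 3 and -0.60 with the FPKM-derived reads. None of these 7 passed an unadjusted p under 0.05.

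Of the 5 V-ATPase members, ATP6V0D1, the subunit of the membrane sector that couples it to the central stalk, was higher in each knockdown library. It had 134, 156 and 203 normalized CPM in the control and 207, 245 and 215 in the knockdown, with control repeat 3 just below the lowest knockdown library. The log2 fold change was 0.43 (SE 0.18, adjusted p = 0.239, edgeR) or 1.35-fold, and 0.62 without control repeat 3 (adjusted p = 0.0410). The same value was 0.31 without control repeat 1 and 0.32 with the FPKM-derived reads of control repeat 2 (adjusted p = 0.373, edgeR). ATP6V1A, the catalytic subunit, had 52.5, 60.7 and 53.3 normalized CPM in the control and 51.9, 60.6 and 54.3 in the knockdown (fold change 1 on the linear scale). ATP6V1H, a regulatory subunit, was the least variable gene to separate the groups, with 31.2, 31.6 and 32.4 in the control and 28.8, 29 and 29.7 in the knockdown. Its log2 fold change was only -0.12 (SE 0.14, adjusted p = 0.649, edgeR). ATP6V1B2 overlapped (log2 fold change -0.25, SE 0.23, and -0.02 with the FPKM-derived reads). ATP6AP1, an assembly factor of the pump, overlapped through control repeat 3 alone (0.21, SE 0.15).

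Of the 15 autophagy members, 13 had log2 fold changes below 0, beside 8047 of all 15075 genes. ATG9A, ATG5 and GABARAPL2 were among the 13 but lay close to 0, and all 3 turned positive with no filter beyond 1 count. All 3 selective receptors had negative values. OPTN, a receptor for ubiquitinated cargo and damaged mitochondria, had 98.1, 70 and 59.6 normalized CPM in the control and 49.1, 40.7 and 58.8 in the knockdown. Control repeat 3 and knockdown repeat 3 lay side by side without overlap, and the log2 fold change was -0.62 (SE 0.22, adjusted p = 0.189, edgeR). Without control repeat 3 it was -0.76 (adjusted p = 0.0478, edgeR) and without control repeat 1 -0.39. With the FPKM-derived reads of control repeat 2 it was -0.50 (adjusted p = 0.291, edgeR). SQSTM1, the receptor p62 that is itself degraded by autophagy, had 197, 135 and 182 in the control and 163, 145 and 132 in the knockdown on the same scale, which overlapped (log2 fold change -0.22, SE 0.18). NBR1, which shares its ubiquitin-binding design, had 56.1 to 115 in the control and 55.5 to 85.4 in the knockdown. Its log2 fold change of -0.27 (SE 0.27) was -0.50 without control repeat 3, -0.03 without control repeat 1 and -0.05 with the FPKM-derived reads.

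**Figure D3:**
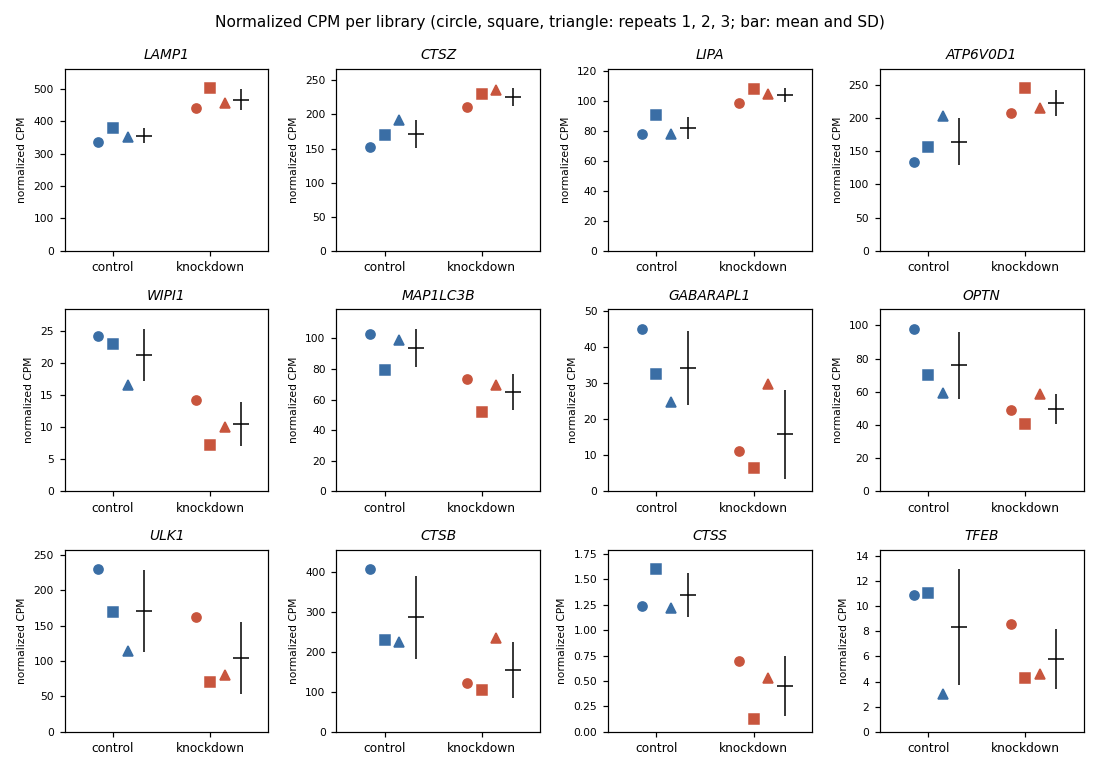
Normalized CPM (y axes, from 0) of 12 members in each library, blue for control and red for Smyca knockdown, with circles, squares and triangles for repeats 1, 2 and 3 and bars for mean and SD. The top row (LAMP1, CTSZ, LIPA and ATP6V0D1) and WIPI1, MAP1LC3B, OPTN and CTSS do not overlap between groups, while GABARAPL1, ULK1, CTSB and TFEB do.

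The 3 ATG8 members differed from each other. MAP1LC3B, the LC3 protein followed in most autophagy assays, had 103, 79.4 and 99.1 normalized CPM in the control and 73.3, 51.7 and 69.8 in the knockdown. All knockdown libraries were below all control libraries, and the log2 fold change was -0.53 (SE 0.18, adjusted p = 0.176, edgeR), between -0.63 and -0.38 over all alternatives. GABARAPL1 had 45.2, 32.6 and 24.9 in the control and 11.1, 6.53 and 29.9 in the knockdown on the same scale. Knockdown repeat 3 lay above control repeat 3 while the other 2 knockdown libraries lay far below, and the log2 fold change of -1.11 (SE 0.49, adjusted p = 0.266, edgeR) ranged from -1.95 to -0.74 when single libraries were left out. GABARAPL2 was nearly level, with 104 to 112 normalized CPM in the control and 104 to 107 in the knockdown (log2 fold change -0.02, SE 0.13).

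As a share of the summed RPKM of these 3 genes, GABARAPL2 made up 46.8 ± 2.49% in the control and 58.2 ± 6.84% in the knockdown, and GABARAPL1 14.2 ± 3.25% and 7.99 ± 5.65%. Their sum was 218 ± 21 RPKM in the control and 173 ± 18.2 in the knockdown, and no knockdown library reached the lowest control library. GABARAP, another member of the family, had 0 to 9 counts per library and was not tested. Near-identical copies took few reads, since MAP1LC3B2 had 0 to 1 counts and GABARAPL3 0 to 2.

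WIPI1, which binds phosphatidylinositol phosphate on the growing membrane, had the smallest p of the 43 genes. Its normalized CPM were 24.3, 23 and 16.6 in the control and 14.2, 7.29 and 9.97 in the knockdown. All knockdown libraries were below all control libraries, and the log2 fold change was -1.02 (SE 0.28, adjusted p = 0.130, edgeR), or a fold of 0.493. Over all alternatives it lay between -1.29 and -0.81, with adjusted p from 0.0194 to 0.440. ARSG on the opposite strand shares 24.4% of its exonic bases, and had 1059 counts over the 6 libraries.

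ULK1, the kinase that starts autophagy, had 230.1, 169.6 and 114 normalized CPM in the control and 163, 70.2 and 80.6 in the knockdown. Knockdown repeat 1 lay inside the control range, and the log2 fold change of -0.71 (SE 0.35, adjusted p = 0.311, edgeR) was -0.45 without control repeat 1 and -1.18 at the other end of the alternatives. BECN1 and UVRAG, partners in the lipid kinase complex, were close to 0 (0.04, SE 0.14, and -0.08, SE 0.15, on the log2 scale). ATG9A, the transmembrane protein that supplies lipid, had a fold change of 0.998 (SE 0.18 on the log2 scale). Of its exonic bases, 38.8% belong to another annotated gene on its own strand, which is absent from the deposited counts.

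The 4 genes of ATG8 and ATG12 conjugation had log2 fold changes between -0.38 and 0.20. ATG7, which activates ATG8 proteins, had a log2 fold change of -0.11 (SE 0.17), and ATG3, which passes them on, one of 0.20 (SE 0.15). ATG5 was at -0.01 (SE 0.16). ATG16L1, which directs the complex with ATG5 to the membrane, had 58.4, 49 and 39.6 normalized CPM in the control and 39, 44 and 29.9 in the knockdown, which overlapped (log2 fold change -0.38, SE 0.20, adjusted p = 0.339, edgeR).

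**Figure D4:**
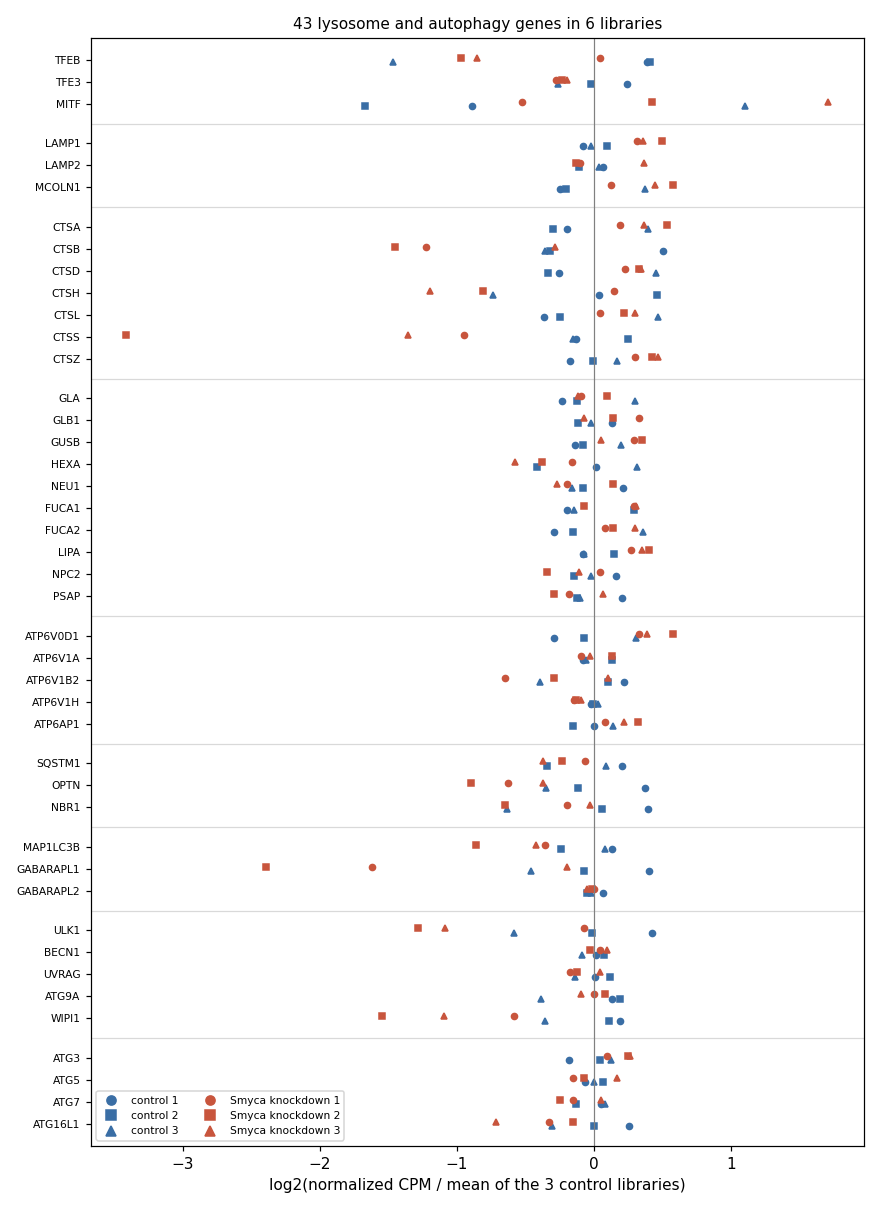
Each of the 43 genes in each of the 6 libraries as log2 of normalized CPM over the mean of the controls (x axis), with genes in rows grouped by role. Blue points are control and red points Smyca knockdown libraries, and the low red points of CTSS, GABARAPL1, WIPI1, ULK1 and CTSB contrast with the narrow rows of GABARAPL2, ATP6V1H and BECN1.

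Set beside the promoter sequences above, the 5 genes with a CLEAR core were ATG3, LAMP1, ATP6V0D1, MCOLN1 and CTSA, and each had a positive log2 fold change (0.20 to 0.43, median 0.39). LAMP1 and ATP6V0D1 were 2 of the 4 members higher at an unadjusted p under 0.05, and the others, CTSZ and LIPA, had no E-box in the window. The 27 members without an E-box had a median log2 fold change of -0.03, with 10 positive. Among all genes tested with a RefSeq window, the 207 with a CLEAR core had a median of 0.08 and 58% were positive, against -0.02 and 48.2% of the 9862 without an E-box. Of 7 other lysosome and autophagy genes with a core, 3 were positive (ATP6V1G1, IGF2R and GALNS) and the median was -0.07. These are descriptions without a test. AP-1, the product of the FOS and JUN immediate-early genes, has the motif TGANTCA, which was in the windows of FUCA2 and TFE3 alone (5.88%, against 7.76% of all genes with a window).

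**Figure D5:**
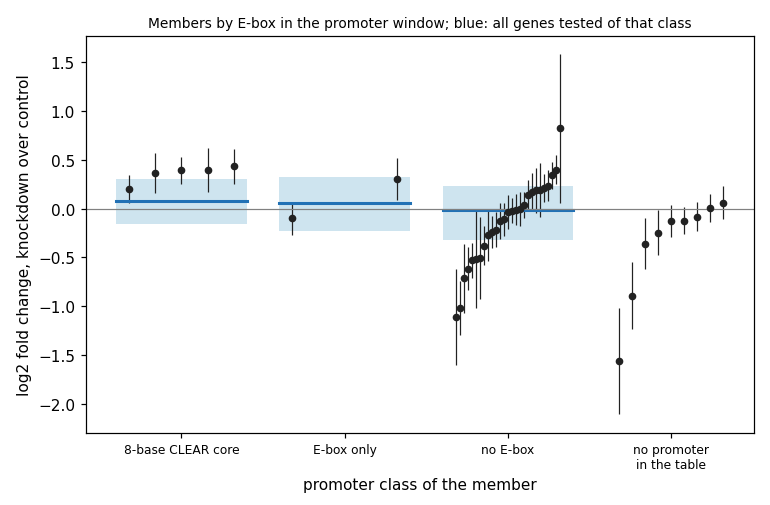
Log2 fold change in the Smyca knockdown (y axis, bars for the standard error) of the 43 genes by promoter class, with the 9 genes without a RefSeq window at the right. Blue lines and bands give the median and the interquartile range of all genes tested in the class, and the 5 members with a CLEAR core all lie above 0.

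A list of 128 other genes of the same pathways, of which 122 were tested, gave a like picture. None was a DEG, 11 were lower (9.02%) and 9 higher (7.38%) at an unadjusted p under 0.05 in edgeR's test, again near the shares of all genes, and the groups did not overlap for 12 in the lower (9.84%, against 12.4%) and 15 in the higher direction (12.3%, against 12.5%). DEGs numbered 3 with DESeq2, 5 without a filter on low counts (of 128 then tested) and 12 without control repeat 3, beside the 5.64%, 3.01% and 10.5% of all genes given above. Among 41 lysosomal enzymes and membrane proteins tested, 4 were higher and 3 lower at that p. Those named here among the higher genes are PPT1, a thioesterase, and LAPTM4B, a membrane protein, with log2 fold changes of 0.53 (SE 0.19) and 0.45 (SE 0.19). Among the lower genes were CTSK, the protease of osteoclasts, with control and knockdown means of 2.46 ± 0.585 and 0.966 ± 0.149 on the normalized CPM scale, and SGSH, a sulfatase of heparan sulfate (log2 fold change -1.36, SE 0.47).

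Of the 15 other V-ATPase genes, ATP6V1C1 was higher (log2 fold change 0.38, SE 0.16) and TCIRG1, a membrane-sector subunit, lower (-0.65, SE 0.23) at an unadjusted p under 0.05. Of 38 other autophagy genes, 5 passed it in the lower and 0 in the higher direction (10.4% and 8.74% of all genes did), and the groups did not overlap for 4 lower and 3 higher (12.4% and 12.5% of all genes). The 5 were led by VMP1, which shapes the early autophagic membrane (302 ± 71.9 against 176 ± 43 normalized CPM, log2 fold change -0.78, SE 0.24), ATG12, the partner of ATG5 (39.1 ± 2.63 against 27.6 ± 3.64, -0.50, SE 0.16), and CALCOCO2, a receptor related in role to OPTN (-0.60, SE 0.24). None of these 3 reached an adjusted p under 0.05 (0.147, 0.157 and 0.220).

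Genes of nutrient sensing at the lysosome, upstream of TFEB, numbered 28 tested, with 15 positive and 13 negative log2 fold changes and a median of 0.05. At an unadjusted p under 0.05 (edgeR), 4 were higher and 2 lower, beside 8.74% and 10.4% of all genes, and the groups did not overlap for 6 higher and 2 lower, beside 12.5% and 12.4%. MTOR, the kinase of mTORC1, had 102, 112 and 117 normalized CPM in the control and 143, 151 and 177 in the knockdown, without overlap (log2 fold change 0.51, SE 0.15, adjusted p = 0.140, edgeR). Its partners MLST8 and AKT1S1 had log2 fold changes of 0.57 (SE 0.18) and 0.56 (SE 0.19) and did not overlap either. DDIT4, a stress-induced inhibitor of mTORC1, had 1289, 853 and 112 normalized CPM in the control and 211, 56.8 and 175 in the knockdown (log2 fold change -2.35, SE 0.78, adjusted p = 0.169, edgeR). Control repeat 3 fell among the knockdown libraries for DDIT4. FNIP1, a partner of folliculin, was at -0.50 (SE 0.19).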

How the data were processed

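RNA-seq was analysed from 3 control shRNA and 3 Smyca shRNA #1 libraries. After rRNA removal and strand-specific preparation, the authors aligned reads to hg38 (TopHat 2.0.12, from the submitters' processing notes) and used HTSeq for counting (strand setting and annotation not given in the sources used here). The authors deposited raw read counts of 58302 genes, used for every test, and FPKM values, used for gene lengths and to check the counts. Genes were given symbols through GENCODE.

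Tests were run with edgeR 4.0.16 under R 4.3.3 (TMM, filterByExpr, quasi-likelihood test, Benjamini-Hochberg adjustment over 15075 genes), and the code was tested on simulated data. SE is the absolute log2 fold change over the square root of F. RPKM were computed from normalized counts and the lengths implied by the FPKM columns. For control repeat 2, whole reads were recovered from FPKM (100% of values under 200 reads within 0.1 of a whole read, 16760636 reads in all). Alternatives were RLE size factors, total counts, other filters, DESeq2 1.42.0, a replicate block, each library left out, and those recovered reads, the last chosen after seeing the data. Promoter motifs were also chosen after first results.

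The 43 genes and the other lists were chosen with earlier results of these data known. Named genes were the 43, Smyca and, in each other pathway list, the 3 smallest unadjusted p per direction under 0.05, of which 2 genes are not reported here. GABARAP, as a relative of members, and ATP6V1G1, IGF2R and GALNS, for their promoter motif, were named outside this rule after their values were seen. P-values weigh the difference between groups against the spread of libraries within groups. Beyond counting noise, that spread was a biological coefficient of variation of 25.2% (edgeR's common value). Spread between shRNAs was not measured.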

Additional observations from a re-analysis of the deposited data

How the results depend on the processing

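Of the 43 genes, 30 kept the sign of their log2 fold change in all 13 alternatives, and 2 more, MITF and CTSS, in the 12 in which they were tested. The 11 others lay near 0 or rested on single libraries. With total counts, LAMP2 became -0.011, ATP6V1A -0.069 and BECN1 -0.032, the members' median -0.108, and 8 DEGs were called among all genes; 1 member was higher at an unadjusted p under 0.05 and 8 did not overlap in the lower direction (18.6%, against 16.1% of all genes). With no filter beyond 1 count, GLA was 0.0016, GABARAPL2 0.012, ATG9A 0.028 and ATG5 0.019, 3 members and 916 genes were DEGs, and Smyca was at -1.49. With at least 10 counts in every library, ATP6V1A was -0.013 and 0 members passed the ratio upward. RLE size factors gave ATG9A 0.012 and ATG5 0.00088, and DESeq2 0.012 and 0.00079, with 1 member and 850 genes called and Smyca at -1.51 (adjusted p = 3.7e-05).

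With the FPKM-derived reads of control repeat 2, an alternative chosen after seeing the data, TFEB was 0.090, CTSL -0.118, FUCA2 -0.020, ATG9A 0.235 and ATG5 0.068, 10 genes were DEGs, and 2 members were higher at an unadjusted p under 0.05 and 0 by the ratio.

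The labels give replicate numbers, but same-numbered libraries correlated by only 0.054, 0.094 and 0.021 in their deviations from the group means. With means of 3 libraries, these values cannot show whether same-numbered libraries were handled together, which no source used here states. With the replicate block, 0 genes were DEGs, ATG9A was 0.016, Smyca -1.56, and no member was called (7 lower and 3 higher at an unadjusted p under 0.05). Of the 6 libraries, 3 correlated best with their own number in the other group.

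Leaving out each library in turn gave 0 to 1628 DEGs among all genes and 0 to 4 among the members, the highest in each case without control repeat 3. At an unadjusted p under 0.05, 943 to 2428 genes were lower and 744 to 2147 higher, 1 to 11 members were lower and 0 to 9 higher, and 4 to 15 other pathway genes were lower and 3 to 17 higher. Past the ratio were 3 to 9 members lower and 0 to 4 higher, and without overlap 5 to 13 lower (11.6% to 30.2%, against 14.9% to 25.7% of all genes) and 4 to 13 higher (9.3% to 30.2%, against 14.2% to 23.5%), the highest without control repeat 3. The members' median lay between -0.104 and -0.024, and Smyca between -1.81 and -1.33 (adjusted p = 0.0152 without control repeat 3). By gene, the values were -0.108 to 0.151 for LAMP2, -0.139 to 0.147 for GLA, -0.229 to 0.017 for NEU1, -0.058 to 0.077 for ATP6V1A, -0.042 to 0.010 for GABARAPL2, -0.00069 to 0.080 for BECN1, -0.158 to 0.104 for ATG9A and -0.104 to 0.060 for ATG5. Where an alternative changed a call, the cause was not tested.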

Other observations

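Among the 43 genes, knockdown repeat 2 held the lowest value of the 6 libraries for 12 (27.9%, against 17.7% of all genes tested). Control repeat 1 held the highest for 15 (34.9%, against 23.4%) and the lowest for 11 (25.6%, against 20.7%). The median coefficient of variation of normalized CPM was 18.9% over the control and 11.9% over the knockdown libraries for these genes, against 18.8% and 16.3% for all genes tested.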
